A study of Apis mellifera with 6 samples.

Results

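The comparison described here is that of brains from newly-eclosed honey bee (*Apis mellifera*) drones with brains from newly-eclosed workers, across all genes of the annotation. Of the 6 RNA-seq libraries of the series, 4 carried the labels drone or worker, with 2 replicate libraries for each phenotype, and these 4 were compared. The 2 remaining libraries came from queens and were used only to share the estimate of the spread. A library stands for 5 pooled central brains, dissected within 1 hour of emergence with the optic lobes removed, and hypopharyngeal glands were also removed from worker brains. Nothing in the labels says that equally numbered pools of the 2 phenotypes belong together, and the p-values measure the spread between these pools.

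Drones are the haploid males of the colony and develop from unfertilised eggs, whereas workers are diploid females with reduced ovaries. Sex in the honey bee is set by the complementary sex determiner *Csd*, through *Fem* and the sex-specific splicing of doublesex (*Dsx*), a transcription factor. Drones leave the hive to mate in flight and have much larger eyes than workers, and workers nurse brood with secretions of the hypopharyngeal gland before they forage. Sex and caste are confounded in this design, since every male is a drone and every worker is a female. In tissue RNA, fewer cells of a type and less RNA per cell cannot be told apart.

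The drone libraries held 40453911 and 11287495 estimated counts, and the worker libraries held 12432182 and 7685185. After scaling, 3 counts corresponded to 0.0893 and 0.326 CPM (counts scaled to a common library size) in drone libraries and to 0.257 and 0.442 CPM in worker libraries. Unless TPM is named, levels below are CPM, which compare a gene between libraries. TPM also divides by transcript length and is used where genes are compared with each other. Fold changes are drone over worker on the log2 scale with a standard error (SE), and FDR is the p-value of edgeR's quasi-likelihood test after Benjamini-Hochberg adjustment, with 0.05 as the threshold. No gene was tested by exact permutation, because 2 pools per phenotype allow no two-sided p smaller than 0.333.

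The level of a gene went with its annotated strand in every library. Genes on the minus strand made up 43.0% of the 9706 tested genes but held only 3.83% and 3.07% of the counts of the drone libraries, against 3.44% and 3.45% in the worker libraries. The median level was 52.2 CPM for 5529 plus-strand genes and 1.45 CPM for 4177 minus-strand genes. The cytochrome c gene *CytC*, which most cells use, lies on the minus strand and was near 0, with 1.79 and 0.544 CPM in drones and 0.0857 and 0.884 CPM in workers. Among genes with a mean of at least 1 CPM in drones, 162 of 2569 minus-strand genes were over 4-fold higher in replicate 1 than in replicate 2 and 6 were over 4-fold lower, whereas 2 and 2 of 4986 plus-strand genes were. The reason for this split was not tested, and values of minus-strand genes are not read here as levels of those genes. They include *Csd*, *Fem*, *Mad*, *Usp*, the opsins *Uvop* and *Lop2*, vitellogenin, the hexamerins, *Syt1*, *Syx1A* and *Para*. All genes named below lie on the plus strand.

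Over all 9706 genes, 2777 (28.6%) had an FDR below 0.05, of which 1301 (13.4%) were higher and 1476 (15.2%) were lower in drones, and the libraries of the phenotypes did not overlap for 60.8%. Of the 5529 plus-strand genes, 2181 (39.4%) passed, 969 (17.5%) higher and 1212 (21.9%) lower in drones, and 2783 had an unadjusted p below 0.05. The libraries of drones and workers did not overlap for 3886 (70.3%) plus-strand genes. The median log2 fold change of plus-strand genes was -0.05. Among genes that passed, the median size of the log2 fold change was 0.70, and 420 genes were more than 2-fold higher and 365 more than 2-fold lower in drones. At more than 4-fold there were 171 higher and 123 lower genes. Thus most of the differences were small, with long tails on both sides that hold the genes described below. The split into higher and lower depended on the scaling, as 44.4% of the plus-strand calls were higher in drones here, against 33.3% when library totals replaced the trimmed mean of M-values (TMM) and 23.8% by limma on log2(TPM + 1). The median over plus-strand genes was then -0.16 and -0.24, so log2 fold changes near 0 shift with the scale.

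**Figure D1:**
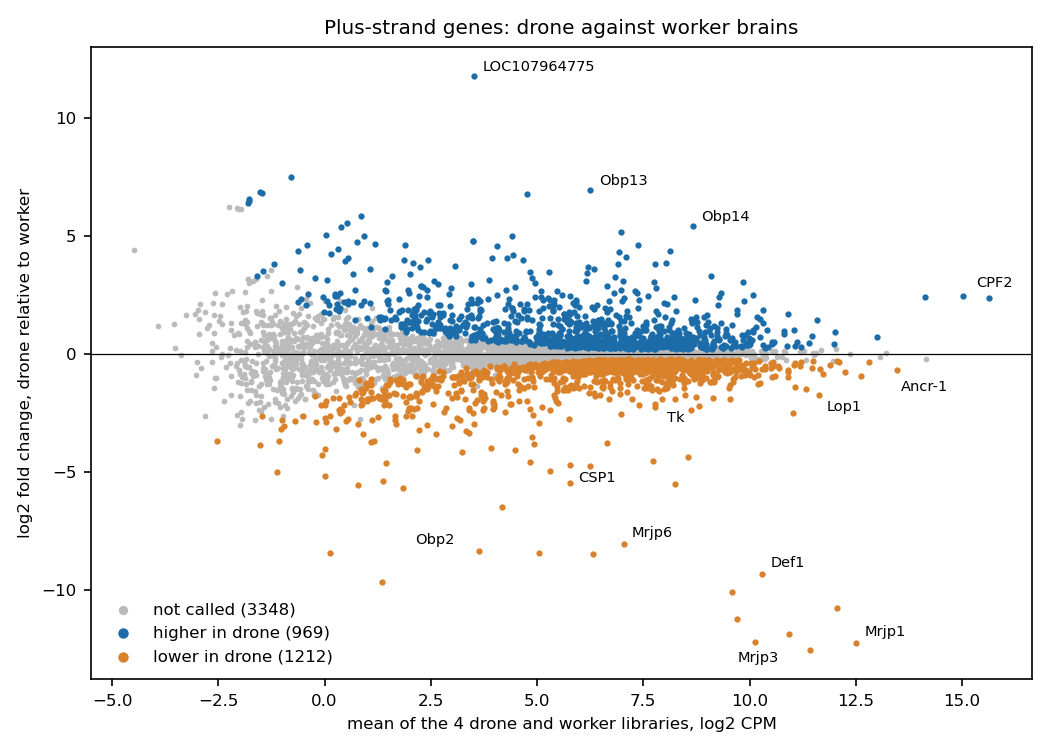
Log2 fold change of drone over worker (y axis) against the mean log2 CPM of the 4 drone and worker libraries (x axis) for 5529 plus-strand genes. Blue points are 969 genes higher in drones, orange points are 1212 genes lower in drones and grey points did not pass an FDR of 0.05, and the largest folds lie below 0, where the major royal jelly protein genes are.

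The share of genes that passed grew with the level. Split by level into 3 equal groups of 1843, it was 28.1% in the lowest, 33.9% in the middle and 56.4% in the highest group of plus-strand genes. The size of the difference ran the other way, with a median log2 size of 1.65, 0.61 and 0.50 among the called genes of these groups. In the highest, 401 genes were higher and 638 lower in drones. Among 742 long noncoding RNA genes 105 were higher and 84 lower (25.5% called), and among 4760 protein-coding genes 862 were higher and 1126 lower (41.8% called). Honey bees have no sex chromosomes, and the share called ranged between 35.0% on chromosome 12 and 46.1% on chromosome 7 over the 16 chromosomes.

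In the sex determination list, 2 plus-strand genes were tested and both were lower in drones, beside 21.9% of all plus-strand genes. *Dsx* (chromosome 5) had 20.1 and 18.5 CPM in drone pools, against 65.7 and 64.7 CPM in worker pools, a log2 fold change of -1.75 (SE 0.10, FDR 8.2e-07). Every drone pool was below every worker pool by more than 3-fold. *tra2*, a splicing factor that acts with Fem on *Dsx* transcripts, had 176 and 183 CPM in drones and 207 and 217 CPM in workers (-0.24, SE 0.07, FDR 0.024). The pools of *tra2* did not overlap, but the FDR was 0.085 without worker replicate 1, 0.10 without worker replicate 2 and 0.13 without drone replicate 1.

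The shares of single *Dsx* transcripts are given as values. A 6-exon transcript ending at position 3617256 had 42.0 and 9.77 counts in drones, which were 6.22% and 5.75% of the counts of the gene, and 0 in both worker pools, and was not tested, since it passed the filter on low counts in too few libraries. A 7-exon transcript with the same end took 1.58% and 0% in drones, against 10.8% and 8.05% in workers (FDR 0.067). The main transcript of 6 exons, which ends at position 3620990, held 92.2% and 94.3% of the *Dsx* counts in drones and 89.2% and 90.8% in workers, and was itself lower in drones (-1.64, SE 0.12, FDR 0.0028). Thus only the main transcript was called, and the values of the 2 minor ones rest on few counts.

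Among the lists examined, the cuticle genes had the largest summed level in drones. Of 15 tested plus-strand genes for structural proteins of the cuticle, 9 were higher and 4 lower in drones, beside 17.5% higher and 21.9% lower of all plus-strand genes, and the median log2 fold change was 0.95 against -0.05 over all. Summed, the 15 genes took 11.8% and 11.9% of all counts paired with a gene in the drone pools, against 2.69% and 2.72% in worker pools. The most abundant was *CPF2* on chromosome 15, a cuticular protein gene, with 84355 and 86527 CPM in drones and 16113 and 16972 CPM in workers (2.37, SE 0.11, FDR 1.7e-07). Per length it averaged 199566 TPM in drones and 42633 TPM in workers. *CPR5* on chromosome 16, a member of the chitin-binding family with the Rebers and Riddiford domain, had 29338 and 30740 CPM in drones, against 5472 and 5674 CPM in workers (2.43, SE 0.10, FDR 9.0e-08). For both genes the 2 pools of a phenotype were close together and the drone level was 5.17-fold and 5.39-fold that of workers.

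The smaller cuticle genes followed in the same direction for the most part. *CPR27* had 1269 and 1349 CPM in drones and 338 and 379 CPM in workers (1.87), and the genes *Cpap3-d*, *Cpap3-b* and *Cpap3-c*, for proteins similar to peritrophins, had log2 fold changes of 1.72, 1.36 and 1.33. Apidermins are small cuticular proteins found in bees. *Apd-1* had 5567 and 5335 CPM in drones against 2576 and 3140 CPM in workers (0.93, SE 0.10, FDR 7.5e-05), and *Apd-3* had 862 and 728 CPM against 367 and 457 CPM (0.95, SE 0.11, FDR 0.00014). On chromosome 4, between 4454035 and 4488233, the apidermin cluster holds 6 tested genes of which 5 are on the plus strand. All 5 plus-strand genes of the cluster were higher in drones, beside 17.5% of all plus-strand genes. Its first member, the gene with symbol *apd-3* and identifier 409716, was low, with 4.85 and 5.76 CPM in drones against 2.14 and 0.737 CPM in workers (1.78). It had a value of 2.87 without worker replicate 1 and an FDR of 0.053 without worker replicate 2.

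Not all cuticle genes shared that direction. *CPR6* had 34.9 and 35.3 CPM in drones and 58.5 and 58.2 CPM in workers (-0.73, SE 0.10, FDR 0.00041). *CPR28* had 4.88 and 6.20 CPM in drones, against 12.4 and 12.1 CPM in workers (-1.17, FDR 0.0025). *CPR22* had 12.0 and 13.6 CPM in drones and 18.9 and 33.6 CPM in workers (-1.03), with -0.58 and an FDR of 0.05 without worker replicate 2 and an FDR of 0.069 without drone replicate 1. *CPR16* was called lower at an FDR of 0.0496 only, and this call was lost without any single library other than worker replicate 1, with FDRs between 0.059 and 0.32. The highest level of these 4 genes in any of the pools was 58.5 CPM, for *CPR6*. The 15 genes are markers of epidermis as well as of cuticle, so tissue that stayed on the dissected brain moves with them, and its part in the result was not tested.

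The genes that fell furthest in drones belonged to the royal jelly family. Major royal jelly proteins are the main secreted proteins of the food that nurse bees make in the hypopharyngeal gland. All 9 genes lie on the plus strand of chromosome 11 between 2268450 and 2325880. In drones 8 were lower and 1 higher, beside 21.9% and 17.5% of all plus-strand genes. Their median log2 fold change was -10.10. Their sum was 28.5 and 33.0 CPM in drones, against 22210 and 23475 CPM in workers, and they took 2.32% of all counts paired with a gene in each worker pool. *Mrjp1* had 1.79 and 4.02 CPM in drones and 11212 and 11951 CPM in workers (-12.27, SE 0.23, FDR 3.9e-10). *Mrjp3* had 0.774 and 1.30 CPM in drones and 5299 and 5591 CPM in workers (-12.56, SE 0.16, FDR 2.7e-11). The drone values rest on 60 and 37 counts for *Mrjp1* and on 26 and 12 counts for *Mrjp3*, so the size of these folds depends on few drone counts, while no drone pool came near a worker pool.

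The other members differed less or were lower in level. *Mrjp5*, *Mrjp2* and *Mrjp4* had log2 fold changes of -12.20, -11.24 and -10.10. *Mrjp6* had 1.04 and 0.761 CPM in drones, against 263 and 259.8 CPM in workers (-8.06, SE 0.13, FDR 1.9e-10), and *Mrjp7* had 2.74 and 1.74 CPM in drones, against 106 and 109 CPM in workers (-5.46, SE 0.18). The 2 genes at the high-coordinate end of the cluster were low in all 4 libraries. *Mrjp9* had 0.834 and 0.652 CPM in drones and 3.0 and 2.8 CPM in workers (-1.92, FDR 0.011, but 0.069 without worker replicate 1). *Mrjp8* was the only member that was higher in drones, with 19.3 and 20.2 CPM against 12.5 and 11.9 CPM in workers (0.69, FDR 0.013, but 0.066 without worker replicate 2). Without drone replicate 1 the values were -11.49 for *Mrjp1*, -11.51 for *Mrjp5* and -9.25 for *Mrjp4*. The sequences of these genes are similar to each other, so counts could be split between members.

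Other genes of the gland moved with the royal jelly genes. Of the 3 alpha-glucosidases of the list, *Hbg3* had 37.3 and 37.6 CPM in drones against 218 and 211 CPM in workers (-2.52, SE 0.08, FDR 2.4e-08). *AGLU2*, which the gene table also lists as Hbg1, had 0.417 and 0.326 CPM in drones and 33.1 and 38.8 CPM in workers (-6.49, SE 0.25, FDR 6.0e-08). *Hbg2* was low and went the other way, with 2.98 and 3.91 CPM in drones and 0.857 and 0.590 CPM in workers (2.18, FDR 0.0061). Gland tissue left on worker brains could not be told apart from expression in brain cells with these data, and its part in the result was not tested. *Def1*, which encodes the antimicrobial peptide defensin 1, likewise fell in drones, with 4.05 and 3.48 CPM in drones and 2451 and 2565 CPM in workers (-9.33, SE 0.11, FDR 2.7e-11). LOC406093 on chromosome 6 averaged 39.2 TPM in drones and 62429 TPM in workers (-10.76, SE 0.20), which was the highest per-length level in workers among the genes named here. LOC406081 on chromosome 5 had 0.953 and 1.30 CPM in drones, against 3408 and 4358 CPM in workers (-11.87, SE 0.20, FDR 2.1e-10).

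**Figure D2:**
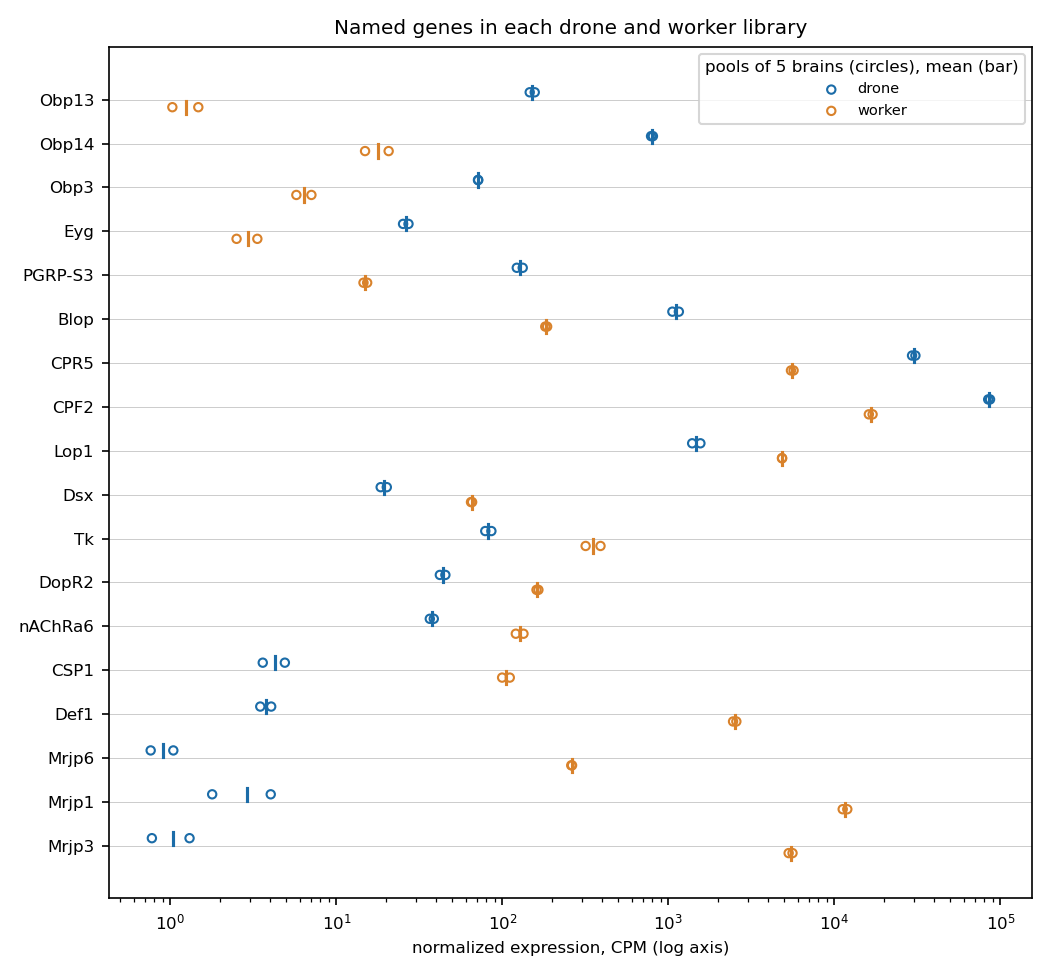
CPM in each library (log axis) for 18 plus-strand genes, with drone pools in the row above worker pools for each gene. Circles are single pools and the bar is their mean. The genes shown were picked from called genes, so the lack of overlap between their drone and worker pools came with that choice. Pools do not overlap for 2776 of all 2777 called genes and for 70.3% of all plus-strand genes. The genes run from *Obp13* (146 and 157 CPM in drones, against 1.03 and 1.47 CPM in workers) to *Mrjp3* (0.774 and 1.30 CPM, against 5299 and 5591 CPM).

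Odorant-binding proteins carry small hydrophobic molecules and are best known from the fluid around olfactory neurons. Of 14 tested plus-strand genes, 4 were higher and 5 lower in drones, beside 17.5% higher and 21.9% lower of all plus-strand genes, with a median log2 fold change of -0.04. *Obp13* had 146 and 157 CPM in drones and 1.03 and 1.47 CPM in workers (6.97, SE 0.25, FDR 4.1e-08). *Obp14* had 786 and 806 CPM in drones and 20.6 and 14.9 CPM in workers (5.45, SE 0.12, FDR 1.4e-09). Both lie next to each other at the start of a cluster of 8 tested genes on chromosome 15, between 1917639 and 1961654, all on the plus strand. The neighbours did not move with them. *Obp16* had 27.0 and 28.3 CPM in drones and 28.4 and 29.0 CPM in workers (-0.05, SE 0.15), and *Obp17* had 102 and 114 CPM in drones and 109 and 102 CPM in workers (0.03, SE 0.11). *Obp18* was higher, at 668 and 651 CPM in drones against 449.6 and 485 CPM in workers (0.50, FDR 0.00046). At the other end of the cluster, *Obp21* had 2.14 and 2.50 CPM in drones and 14.9 CPM in each worker pool (-2.70, SE 0.31, FDR 0.00011), and *Obp19* had 6 and 0 counts in drones against 87 and 45 counts in workers (-5.68, and -9.91 without drone replicate 1). *Obp15*, with at most 16 counts in a pool, did not pass (FDR 0.13).

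Further odorant-binding protein genes lie on chromosome 9. *Obp3* had 71.3 and 71.6 CPM in drones and 5.74 and 7.07 CPM in workers (3.51, SE 0.13, FDR 4.7e-08). *Obp2* had 0.0893 and 0 CPM in drones, which is 3 and 0 counts, and 23.2 and 26.2 CPM in workers (FDR 7.3e-07). *Obp6* had 1.31 and 3.26 CPM in drones and 10.6 and 12.8 CPM in workers (-2.47, with -1.83 and -3.15 without drone replicates 1 and 2), and *Obp5* had 0.387 and 0.109 CPM in drones and 4.46 and 3.54 CPM in workers (-3.72, and -5.12 without drone replicate 1). So adjacent genes of this family were high in opposite phenotypes on both chromosomes.

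**Figure D3:**
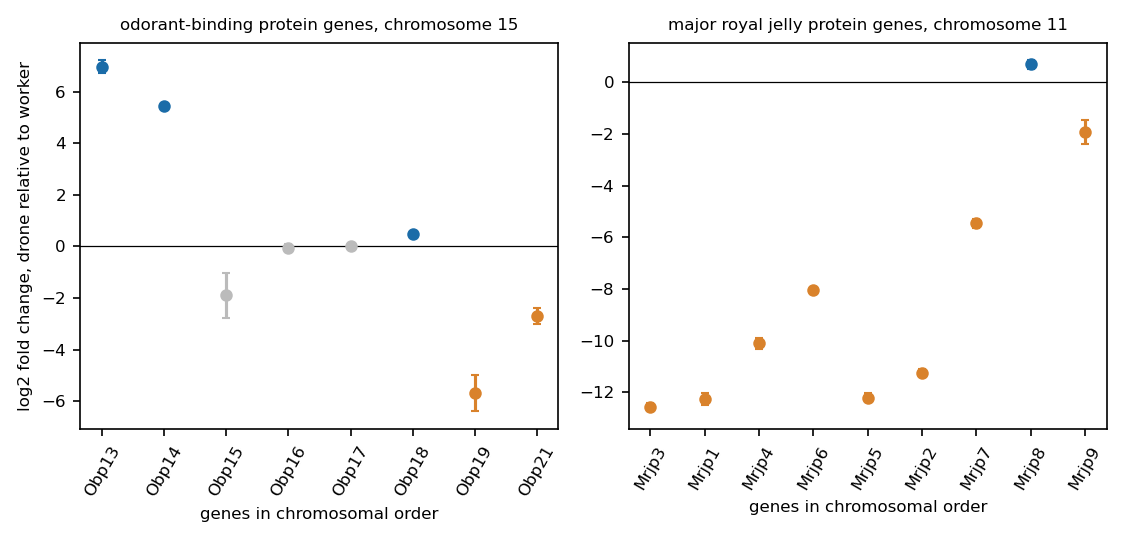
Log2 fold change of drone over worker (y axis, bars are SE) for the genes of the *Obp13* to *Obp21* cluster on chromosome 15 and of the *Mrjp* cluster on chromosome 11, in chromosomal order. Grey points did not pass an FDR of 0.05; the first cluster runs between 6.97 for *Obp13* and -5.68 for *Obp19*, and in the second only *Mrjp8* is above 0, at 0.69.

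The receptors for odours and tastes were low in level, with 20 tested genes on the plus strand that summed to 63.0 and 61.0 CPM in drones and to 88.6 and 89.2 CPM in workers. None was higher and 3 were lower in drones, against 17.5% higher and 21.9% lower of all plus-strand genes, and the median was -0.46. *Or35* had 7.03 and 5.44 CPM in drones and 19.96 and 18.7 CPM in workers (-1.61, SE 0.22, FDR 0.00045). *Or37* had 2.44 and 1.41 CPM in drones and 6.08 and 7.96 CPM in workers (-1.79, FDR 0.0041). *Or19* had 1.52 and 1.09 CPM in drones and 5.23 and 3.54 CPM in workers (-1.72, FDR 0.013, but 0.12 without worker replicate 1). Among chemosensory protein genes on the plus strand, 1 of 3 was called, beside 39.4% of all plus-strand genes. The list holds 2 further tested genes on the minus strand. *CSP1* had 3.6 and 4.89 CPM in drones and 111 and 99.6 CPM in workers (-4.72, SE 0.15, FDR 2.0e-08), whereas *CSP3*, at 5271 and 5308 CPM in drones and 5411 and 5238 CPM in workers, overlapped (-0.01, SE 0.08).

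The visual genes that could be read went in opposite directions. *Blop*, the blue-sensitive opsin on chromosome 14, had 1056 and 1156 CPM in drones and 181 and 186 CPM in workers (2.59, SE 0.08, FDR 9.3e-09). *Lop1*, the long-wavelength-sensitive opsin on chromosome 15, had 1390 and 1558 CPM in drones and 4828 and 4843 CPM in workers (-1.71, SE 0.08, FDR 3.1e-07). As a result the level of *Lop1* per length averaged 1116 TPM beside 877 TPM for *Blop* in drones, but 4291 TPM beside 170.4 TPM in workers. Opsins mark photoreceptors, which lie mainly outside the dissected central brain, and the part of any retained retina or ocellus in these levels was not tested. *Eyg*, a homologue of the *Drosophila* gene eyegone, which encodes a Pax transcription factor of eye development, had 25.2 and 27.2 CPM in drones and 3.34 and 2.51 CPM in workers (3.13, SE 0.24, FDR 7.4e-06).

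Of the biogenic amine list, 4 plus-strand genes were tested and all were lower in drones, beside 21.9% of all plus-strand genes, with a median log2 fold change of -1.33. The list holds 6 further tested genes, which lie on the minus strand and were not read. The dopamine receptor *DopR2* had 42.0 and 45.3 CPM in drones and 160.5 and 165 CPM in workers (-1.90, SE 0.08, FDR 8.4e-08). The dopamine receptor *Dop1* had 67.3 and 69.5 CPM in drones and 201 and 219.6 CPM in workers (-1.62, SE 0.08, FDR 3.9e-07). The serotonin receptor *5-HT1* had 129 and 132 CPM in drones against 251 and 288 CPM in workers (-1.05). *TyHyd*, the tyrosine hydroxylase that makes the precursor of dopamine, had 97.0 and 116 CPM in drones and 168 and 178 CPM in workers (-0.71, SE 0.09, FDR 0.00026). No drone pool reached a worker pool for any of the 4 genes. Pools did not overlap for 70.3% of all plus-strand genes and for 2776 of all 2777 called genes.

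The 6 readable nicotinic acetylcholine receptor subunits split evenly, 3 higher and 3 lower in drones, beside 17.5% and 21.9% of all plus-strand genes. *nAChRa4* had 92.6 and 93.3 CPM in drones and 52.5 and 59.1 CPM in workers (0.74, SE 0.09, FDR 0.00021), and *nAChRa3* had 305 and 322 CPM in drones and 230.1 and 233 CPM in workers (0.44). *nAChRa1* was higher by 0.43 (FDR 0.0088), but its FDR was 0.098 without worker replicate 1 and 0.068 without drone replicate 1. On log2(TPM + 1), limma gave 0.12 for *nAChRa3* and 0.16 for *nAChRa1*, and neither passed (FDR 0.16 and 0.30). On the other side, *nAChRa6* had 38.6 and 36.5 CPM in drones, against 120.5 and 134 CPM in workers (-1.75, SE 0.08, FDR 2.8e-07). *nAChRa7* and *nAChRa8* were lower by 0.46 and 0.36 on the log2 scale (FDR 0.0013 and 0.0041). The largest difference among the 6 readable subunits was thus that of *nAChRa6*, with a fitted fold of 0.297. The list holds 4 further tested subunits, which lie on the minus strand and were not read.

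The 3 ion channel genes, *Nmdar1* and *brp*, all read on the plus strand, were lower in drones, beside 21.9% of all plus-strand genes. Not read, on the minus strand, were 2 further tested ion channel genes, 6 of the list with *Nmdar1* and 2 of the list with *brp*. *Cac*, a voltage-gated calcium channel, had 524 and 507 CPM in drones, against 999.8 and 1106 CPM in workers (-1.03, SE 0.08, FDR 7.6e-06), and LOC100578899, listed with the synonym Cav1a, had 306 and 290.0 CPM in drones and 602 and 646 CPM in workers (-1.07). *Amih*, a channel activated by hyperpolarisation, differed less (-0.44, FDR 0.0022). The NMDA receptor subunit *Nmdar1* had 304 and 325 CPM in drones and 539.5 and 587 CPM in workers (-0.84, SE 0.07, FDR 1.9e-05). For *brp*, a scaffold of the presynaptic active zone, the log2 fold change was -0.42 (FDR 0.016), and the call was lost without worker replicate 2 (FDR 0.11) and without drone replicate 2 (FDR 0.082). Of the glial genes, the GABA transporter *Gat-a* had 874 and 867 CPM in drones and 489 and 529.8 CPM in workers (0.77, SE 0.07, FDR 2.9e-05), whereas glutamine synthetase, *GlnS*, had 2457 and 2602 CPM in drones and 3765 and 4113 CPM in workers (-0.64, SE 0.08).

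All 5 neuropeptide genes that were tested on the plus strand were lower in drones, beside 21.9% of all plus-strand genes. Their median log2 fold change was -2.09. The list holds 1 further tested gene, which lies on the minus strand and was not read. *Tk*, for the tachykinins, had 85.8 and 78.8 CPM in drones and 317 and 389.8 CPM in workers (-2.09, SE 0.10, FDR 3.5e-07). *Pban*, for the pheromone biosynthesis activating neuropeptide, had 2.71 and 3.70 CPM in drones and 8.57 and 9.73 CPM in workers (-1.55, FDR 0.0012). *NPF* had 0.953 and 0.326 CPM in drones and 5.31 and 6.34 CPM in workers (-2.96, and -4.11 without drone replicate 1). *Crz*, for corazonin, had 0 counts in both drone pools and 2.31 and 2.06 CPM in workers, which is at least 10.5-fold lower in drones against a floor of 3 counts per library (FDR 0.00033). *Eth*, for the ecdysis triggering hormone, was called at -2.0 (FDR 0.0093), with an FDR of 0.082 without worker replicate 1 and 0.056 without drone replicate 1. Apart from *Tk* these genes were below 10 CPM. In each of the 5 the drone pools lay below the worker pools, which came with their calls. Pools did not overlap, in either direction, for 2776 of all 2777 called genes and for 70.3% of all plus-strand genes.

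Of 4 readable genes of hormone signalling, 2 were higher and 2 lower in drones, beside 17.5% and 21.9% of all plus-strand genes. Juvenile hormone is made with the help of a methyltransferase and degraded by an esterase. The esterase gene *Jhe* had 95.1 and 96.0 CPM in drones and 20.6 and 24.6 CPM in workers (2.09, SE 0.11, FDR 4.5e-07). LOC724216, listed with the synonym jhamt, the name of that methyltransferase, had 13.5 and 14.9 CPM in drones against 97.9 and 87.8 CPM in workers (-2.73, SE 0.11, FDR 8.85e-08). The ecdysone receptor gene *Ecr*, which was also the only readable factor of the *Mad* network list, had 245 and 201 CPM in drones and 316 and 369.8 CPM in workers (-0.61, SE 0.11, FDR 0.0022). The insulin receptor gene *InR-2* had 55.6 and 54.2 CPM in drones and 30.3 and 35.2 CPM in workers (0.75, SE 0.11), but did not pass with limma on log2(TPM + 1), at 0.41 (FDR 0.067).

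In the immune list, 1 of 5 plus-strand genes was higher and 2 were lower in drones, beside 17.5% and 21.9% of all plus-strand genes. *PGRP-S3*, a short peptidoglycan recognition protein gene, had 122 and 133 CPM in drones and 14.6 and 15.3 CPM in workers (3.09, SE 0.10, FDR 2.4e-08). *PPO*, for prophenoloxidase, the enzyme of melanisation, had 22.2 and 22.3 CPM in drones and 67.9 and 64.6 CPM in workers (-1.58, SE 0.11, FDR 2.8e-06), and *Def1* was the other gene that fell. The related *Pgrp-s2* was at 114 and 112 CPM in drones and 91.7 and 105 CPM in workers (0.21, FDR 0.16). Of the muscle markers, 3 of 4 troponin genes were lower in drones, beside 21.9% of all plus-strand genes. *TpnT* had 45.3 and 35.8 CPM in drones and 92.6 and 128 CPM in workers (-1.41, SE 0.16, FDR 0.00012), and *TpnCIIb* and *TpnCIIa* were lower by 1.34 and 0.53 on the log2 scale. *TpnCIIa* had an FDR of 0.066 when only drone and worker libraries were in the fit. The summed level of the 4 troponin genes was 118.6 and 103 CPM in drones and 177 and 228 CPM in workers, and the part of attached muscle in other results was not tested. Of the fat body list, the transferrin gene *Tsf1* was the only readable member and had 2555 and 2743 CPM in drones and 1708 and 1935 CPM in workers (0.54, SE 0.09, FDR 0.0011).

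**Figure D4:**
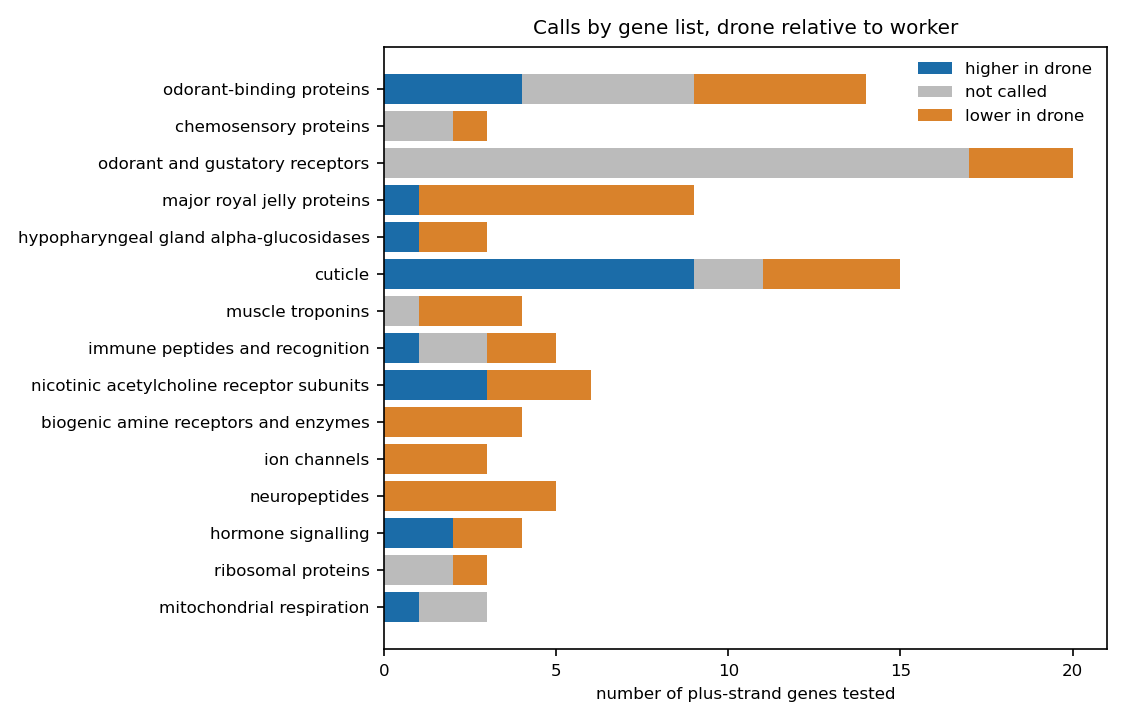
Number of tested plus-strand genes (x axis) that were higher, lower or not called in drones relative to workers for each gene list with at least 3 such genes (y axis). All plus-strand members of the amine, ion channel and neuropeptide lists are lower (4 of 4, 3 of 3 and 5 of 5). These lists hold 6, 2 and 1 further tested genes on the minus strand, which are not shown. The cuticle list has the most members that are higher (9 of 15). Of all plus-strand genes, 17.5% are higher and 21.9% lower.

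The lists of genes that most cells use held few readable members, beside 39.4% called of all plus-strand genes. Of 3 readable ribosomal protein genes, *Rpl41* and *RpL35* were not called and *Rps14* was lower (-0.39, FDR 0.013), a call lost without worker replicate 2 (FDR 0.093) or drone replicate 2 (FDR 0.061). Of 3 genes of mitochondrial respiration only *ATP5G2* was called (0.42, FDR 0.0036), and with limma on log2(TPM + 1) it was at 0.20 (FDR 0.074). *Hsp90* was called at -0.30 (FDR 0.026), with FDRs of 0.18 without worker replicate 1, 0.0504 without worker replicate 2 and 0.16 without drone replicate 1. The Hox genes *Antp* and *Ubx* were below 10 CPM and not called. *Dnmt3*, the de novo DNA methyltransferase gene, had 42.2 and 43.5 CPM in drones and 78.9 and 79.6 CPM in workers (-0.89, SE 0.09, FDR 5.2e-05), while *Dnmt1a* had a log2 fold change of -0.16 and was not called (FDR 0.46). The clock gene *Cry2* had 106 and 113 CPM in drones and 60.3 and 67.2 CPM in workers (0.78, SE 0.09, FDR 0.00013). Of the cytochrome P450 genes, LOC724946, listed with the synonym CYP6AS11, was higher (1.96, FDR 0.0021), and *CYP6AQ1* was lower (-0.79, FDR 0.016, but 0.11 without worker replicate 1 and 0.079 without drone replicate 1).

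Outside the lists, the most abundant genes called in each direction and those with the largest folds added several loci without a gene name. LOC725838 on chromosome 8 had 57132 and 55655 CPM in drones and 9306 and 10775 CPM in workers (2.49, SE 0.11, FDR 1.6e-07). *Argk*, for arginine kinase, which buffers ATP, had 9847 and 10686 CPM in drones and 5958 and 6285 CPM in workers (0.75, SE 0.09). In the other direction the noncoding RNA gene *Ancr-1* had 8374 and 9083 CPM in drones and 14074 and 13886 CPM in workers (-0.68, SE 0.09, FDR 0.000345). LOC409077 and LOC726924 were lower by 0.93 and 0.75 on the log2 scale. LOC550785 was lower by only 0.33 (FDR 0.021), and it did not pass without worker replicate 1 (0.13), worker replicate 2 (0.065) or drone replicate 1 (0.13). Among large folds, LOC102655457 had 52.5 and 55.4 CPM in drones and 0.600 and 0.295 CPM in workers (6.78, SE 0.31), and LOC552024 had 237 and 249 CPM in drones and 6.60 and 6.63 CPM in workers (5.20, SE 0.12). LOC408807, LOC102653687 and LOC726658 had log2 fold changes of 5.02, 4.82 and 4.81, and LOC408807 was at 5.84 without worker replicate 1.

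Some genes were read in only 1 of the phenotypes, taken as at least 5 counts in both of its libraries and at most 3 in total in the other. On the plus strand, 56 genes were read in drones only, 25 of them long noncoding RNA genes, and 10 in workers only, of which 8 were protein-coding. The drone set was mostly of low level, with a median of 0.715 CPM and 18 genes at 1 CPM or more. Depth makes the rule easier to meet for drones. The shallower library sets the level at which both reach 5 counts, and 3 counts are 0.326 CPM in drone replicate 2 against 0.442 CPM in worker replicate 2. At most 3 counts in total is also a lower level over the deeper drone libraries than over the worker libraries. The part of depth in the sizes of the 56 and 10 genes was not tested. LOC107964775, a long noncoding RNA gene at 3812434 to 3813357 on chromosome 7, had 20.3 and 25.2 CPM in drones and no count in either worker pool, at least 65.1-fold higher against a floor of 3 counts per library (FDR 1.5e-06). It lies within the span of a protein-coding gene on the minus strand, at 3807388 to 3813373. That gene had 81 and 35 counts in drones and 0 and 1 in workers, and to which of these loci the reads belong was not tested. In workers, LOC725114 on chromosome 15 had 0 counts in both drone pools and 37.9 and 39.8 CPM in workers, at least 187-fold lower in drones. That gene was not tested, since fewer than 3 of the 6 libraries reached 5 counts. LOC102653899 on chromosome 13 had 0 counts in drones and 4.97 and 5.16 CPM in workers, at least 24.4-fold lower, and LOC724309 had 1 and 0 counts in drones and 8.23 and 7.66 CPM in workers.

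When single transcripts were tested, 1790 of 17040 (10.5%) had an FDR below 0.05, 927 higher and 863 lower in drones, and 4285 had an unadjusted p below 0.05. Of 11621 plus-strand transcripts 1655 (14.2%) passed. Of 3408 genes with at least 2 tested transcripts, 59 (1.73%) had transcripts called in opposite directions, and 56 of these were among the 2422 such genes on the plus strand (2.31%). In 19 of the 56 the gene as a whole was not called. These counts moved with single libraries: without drone replicate 2 there were 621 transcripts and 9 genes, and without queen replicates 1 or 2 there were 958 and 944 transcripts and 24 genes each. Without drone replicate 1 and worker replicate 2 there were 1014 and 1138 transcripts and 37 and 35 genes. Since estimated counts divide reads among overlapping transcripts, a share is less certain than the sum for its gene.

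LOC551259 on chromosome 7, between 8852924 and 9058966, was the clearest of these genes, and its opposite calls held in 11 of 11 settings. The settings are the reported fit, another scaling, another filter, other designs and each library left out. The reported fit picked these genes, so they could not fail in it. In sum it was higher in drones, with 2397 and 2402 CPM against 1166 and 1272 CPM in workers (0.98, SE 0.08, FDR 1.6e-05). A 107-exon transcript of 41358 bases held 37.0% and 32.5% of its counts in drones and 0.564% and 0.334% in workers (7.28, SE 0.64, FDR 0.0047). A 132-exon transcript of 54066 bases held 0.114% and 0.0811% in drones and 19.5% and 22.5% in workers (-6.61, SE 0.24, FDR 0.0006). The longest, with 134 exons and 76350 bases, held 3.32% and 3.23% in drones against 23.3% and 23.2% in workers (-1.78, SE 0.12, FDR 0.0026). Most counts in drones thus fell on 2 of the shorter transcripts, since a 102-exon one held 37.8% and 40.6% in drones and 25.6% and 29.6% in workers.

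**Figure D5:**
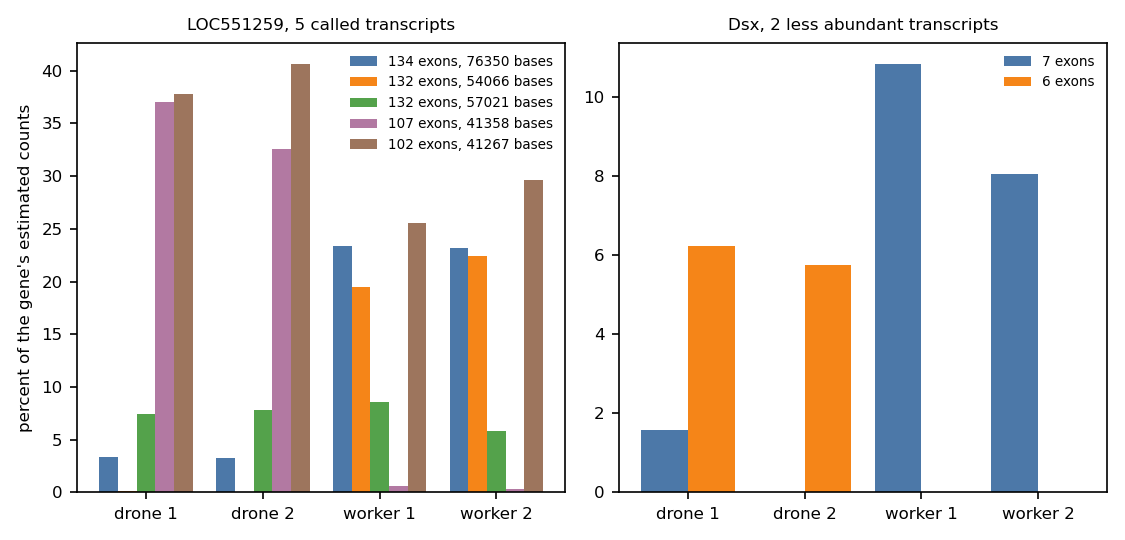
Percent of the estimated counts of a gene (y axis) held by single transcripts in each drone and worker pool, for 5 called transcripts of LOC551259 and 2 less abundant transcripts of *Dsx*. Each bar is 1 transcript in 1 pool; the 107-exon transcript of LOC551259 holds 37.0% and 32.5% in drones against 0.564% and 0.334% in workers, and the 6-exon *Dsx* transcript is read in drones only.

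The other genes of this kind were less firm. LOC413569 on chromosome 14 did not differ in sum beyond its spread (-0.08, FDR 0.60), but a 21-exon transcript held 26.2% and 32.5% of its counts in drones and 5.16% and 5.65% in workers (2.42, SE 0.20, FDR 0.0039). A 22-exon transcript of the same gene held 0.273% and 0.00535% in drones against 9.75% and 9.42% in workers (-5.80, FDR 0.037). Its opposite calls held in 5 of 11 settings, which again include the reported fit that picked it. For LOC726240 on chromosome 13, a 4-exon transcript of 2254 bases held 30.1% and 25.3% in drones and 0.0244% and 0.435% in workers (5.85, FDR 0.012), in 6 of 11 settings, while the gene as a whole was lower (-1.28). LOC409422 and the noncoding LOC107965314 had such transcripts in 7 of 11 settings each, with log2 fold changes of 2.69 and -4.38 and of 3.22 and -4.63 for one transcript in each direction.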

How the data were processed

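RNA from central brains was sequenced after poly(A) selection with a strand-specific kit. The authors assigned reads with Kallisto (version not given in the sources used here) to transcripts of the Amel_HAv3.1 assembly, with strand-specific reads. They deposited an estimated count, which is not normalised, and a TPM value, scaled to transcript length and library total, for each of 28409 targets, and a table of exon coordinates. These coordinates placed 28298 targets in 12303 of the 12398 RefSeq genes of the same assembly, and 823 of these have a symbol other than a locus number. The 111 targets left out, 55 of them rRNA, held 10.2% to 15.5% of a library's counts.

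Summing over the targets of a gene and rounding gave gene counts. The filter asked for 5 counts or more in 3 or more libraries, and the genes left were tested with edgeR 4.0.16 in R 4.3.3 (TMM, quasi-likelihood, phenotype as the factor, all 6 libraries, Benjamini-Hochberg over 9706 genes), and transcripts likewise. Python 3.11.15, pandas 2.3.3 and matplotlib 3.10.9 made tables and figures. The fit was tested on simulated data for the drone and worker comparison, with 200 genes changed 4-fold in 5 draws of 9375 to 9419 genes that passed the filter. It recovered 74.7% of them, and 8.37% of calls were false, above the nominal 5%. The draws held genes of both strands and fewer changed genes than the 2777 called in the data. These shares therefore do not carry over to the plus-strand calls.

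The genes named are the 8 with the largest fold in each direction among called genes with at least 5 CPM and no overlap, the same among genes with a symbol, the 5 most abundant called in each direction, members of 29 gene lists, and the 5 genes with the strongest opposite transcripts. The members and lists were chosen with earlier results of these data known. The restriction to plus-strand genes, and the description of gene clusters, were chosen after the values were seen. The alternatives were other scalings, DESeq2 1.42.0, limma 3.58.1 on TPM, other filters, thinning, a replicate block, and each library left out.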

Additional observations from a re-analysis of the deposited data

Results flagged for a closer look

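The rRNA targets, which entered neither library sizes nor tests, held a larger share of the estimated counts in drone pools than in worker pools. They took 10.1% and 8.86% of the counts of the drone libraries, against 6.81% and 8.09% in the worker libraries. A drone library was listed here only if its share was above those of both worker libraries, so the lack of overlap came with that rule. With 2 against 2 the difference was not tested. The rRNA share was not among the measurements compared above, and its part in other results was not tested.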

How the results depend on the processing

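The number of genes called between drones and workers was 2777, and it lay between 1905 (without worker replicate 1) and 2953 (without drone replicate 2) with a library left out. It was 2272 with the replicate number as a block over all 6 libraries and 1630 with the block and only drone and worker libraries in the fit. For plus-strand genes the count was 2181, with a range of 1607 to 2109 over left-out libraries, 1853 with the block, 1388 with the block and only drone and worker libraries, and 2676 when only plus-strand genes were fitted, of which 2173 were also among the 2181. The replicate numbers were not taken as pairs, because the labels do not pair them and the study fitted caste alone. Deviations of equally numbered pools, over tested genes of both strands, correlated at -0.086 for drone and worker. They correlated at -0.35 for drone and queen and at -0.021 for queen and worker. Transcripts called numbered 1790, with 621 to 1447 over left-out libraries, 921 with only drone and worker libraries and 813 with the replicate block. Genes with opposite transcripts numbered 59, with 9 to 61 over left-out libraries, 22 with only drone and worker libraries and 19 with the block. Of 113 plus-strand genes followed through the alternatives, 112 were called, since most were picked from called genes, with 101 to 111 over left-out libraries, 107 with the block and 95 with the block and only drone and worker libraries. Of 2450 values of these genes under all alternatives, 2359 kept direction and call, 87 lost the call and 2 gained it. The other 2 changed sign: LOC409422 was at 0.16 with counts scaled from TPM, against -0.44, and LOC413569, at -0.08, ranged between -0.17 (without worker replicate 1) and 0.070 (without worker replicate 2) over left-out libraries, and the cause was not tested. Depth limits low genes most, since 3 counts are 0.442 CPM in worker replicate 2 and 0.0893 CPM in drone replicate 1.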

Other observations

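Further gene groups were looked up after values had been seen, and none was tested as a group. The counts below stand beside 39.4% called of all plus-strand genes, 17.5% higher and 21.9% lower in drones. Of 4 plus-strand genes of guanylyl cyclase and kinase signalling, the cyclase subunit gene *sGCbeta-3* was higher in drones, with 123 and 129 CPM against 50.0 and 55.0 CPM in workers (log2 fold change 1.27, SE 0.08, FDR 2.4e-06). The kinase gene *Pkc* had 1483 and 1458 CPM in drones and 2216 and 2505 CPM in workers (-0.68), and the adenylyl cyclase gene *Ac3* had 336 and 335 CPM in drones and 571 and 651 CPM in workers (-0.87). Among 8 antioxidant genes, *GstS1* and *GstD1*, for glutathione S-transferases, were lower (-0.74 and -0.89) and *Sod2* and *Cat*, for superoxide dismutase and catalase, were higher (0.39 and 0.28). The calls of *Sod2* and *Cat* were lost on log2(TPM + 1), with FDRs of 0.064 and 0.91 by limma. *Fibroin4*, a silk gene, had 4.94 and 4.57 CPM in drones against 0.857 and 0.590 CPM in workers (2.67, FDR 0.0012), and the other 3 fibroin genes were below 4 CPM and not called. *Abscam*, for a cell adhesion molecule, had 292 and 287 CPM in drones and 508 and 550.5 CPM in workers (-0.87, FDR 1.9e-05). Its group, of neurexin, neuroligin and cell recognition genes, had 4 tested genes on the plus strand. Of these 2 were lower and 2 not called, with a median of -0.17.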
